A study of Mus musculus with 6 samples.

Results

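The unfolded protein and amino acid stress genes are 37 genes that cells draw on when proteins misfold in the endoplasmic reticulum (ER) or when amino acids run short. They were chosen by name from a written list, with earlier results of these data known. A probe set counted for a member where the array annotation named that gene and no other, and where a gene had several, the one brightest on average over the 6 tumours was kept. All 37 members were measured, among 19937 named genes on the array, and none was dropped for low intensity. By role they form 4 groups: 5 sensors and transcription factors, 14 ER chaperones and folding enzymes, 6 genes of ER-associated degradation, and 12 genes of the ATF4 amino acid branch. The 14 folding genes and the 6 degradation genes are together called the chaperone branch, which holds 20 genes.

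The tissue was whole mammary tumour, 1 from each of 6 female FVBN mice with the MMTV-PyMT transgene. Its viral MMTV promoter is active chiefly in mammary epithelium and drives the polyoma middle T oncoprotein there, and both groups carry it. In the control group 3 mice were given vehicle (DMSO), and in the other 3 mice were given TMP195, an inhibitor of class IIa histone deacetylases, at 50 mg/kg by intraperitoneal injection once a day. Dosing lasted 5 days by one description and 2 weeks by another, and tumour burden was assessed at 75 to 90 days of age. Values are log2 array intensity, and differences are log2 TMP195 minus vehicle. They compare a gene with itself across tumours, because probe sets differ in brightness for reasons other than transcript number. In bulk tumour RNA, fewer cells of a type and less RNA per cell cannot be told apart.

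The 6 arrays had median intensities from 44.8 to 46.4, and with 3 tumours a group their number limits the precision. The label was borne out by 10 mammary epithelial markers, all 10 brighter than the median gene, whose mean log2 intensity ran from 9.96 to 10.07. Single markers moved more than their mean. In TMP195 tumour 2, 2 of the 10 were highest, among them Krt19 at 10.52, and 3 were lowest, among them Elf5 at 10.70. Both tumours numbered 2 stood apart in other tissue markers. TMP195 tumour 2 had a mean of 6.87 over 7 milk secretion genes, against 8.87 to 10.53 in the other tumours. It was also the lowest in adipocyte and in salivary or serous secretory markers. Vehicle tumour 2 had a mean of 7.91 over 10 skeletal muscle genes, against 4.57 to 5.00. Over 9 proliferation genes vehicle tumour 2 was the highest, at 8.87, and TMP195 tumour 2 the lowest, at 8.07. Over 10 hypoxia genes TMP195 tumour 2 was the highest, at 8.93, and vehicle tumour 2 came next, at 8.66.

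Misfolded protein in the ER is sensed by 3 membrane proteins, IRE1 (the product of Ern1), ATF6 and PERK. IRE1 splices the Xbp1 transcript so that it encodes an active transcription factor, ATF6 is cleaved to release another, and both act on genes of chaperones and of ER-associated degradation. PERK phosphorylates the translation factor eIF2α, as the kinase GCN2 does when amino acids are scarce, which lowers general protein synthesis and favours translation of ATF4. ATF4 in turn acts on genes that make and import amino acids. Secretory epithelium such as the mammary gland is rich in ER and keeps much of this machinery on. The arrays measured transcript level, not splicing of Xbp1, cleavage of ATF6 or protein.

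No member passed the test between TMP195 and vehicle. In limma with Benjamini-Hochberg adjustment over all 19937 genes, 0 of 37 members were called at an adjusted p under 0.05, against 0% of all genes, and the adjusted p of every member was 1.00. At an unadjusted p under 0.05 the count was also 0 of 37, against 2.52% of all genes. In 19 members the TMP195 mean lay above the vehicle mean and in 18 below it, against 49.5% of all genes above and 50.5% below, and the median difference was 0.0023, against -0.0014 over all genes. The 95% interval of every one of the 37 differences held 0. The 3 tumours of one group did not overlap the 3 of the other in 3 of 37 members, against 6.68% of all genes: Atf4 and Vldlr lay higher in the TMP195 tumours, as 3.47% of all genes did, and Phgdh lay lower, as 3.21% did. A difference of 1.5-fold or more together with groups that did not overlap was seen for Phgdh alone among the members, against 0.261% of all genes.

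**Figure D1:**
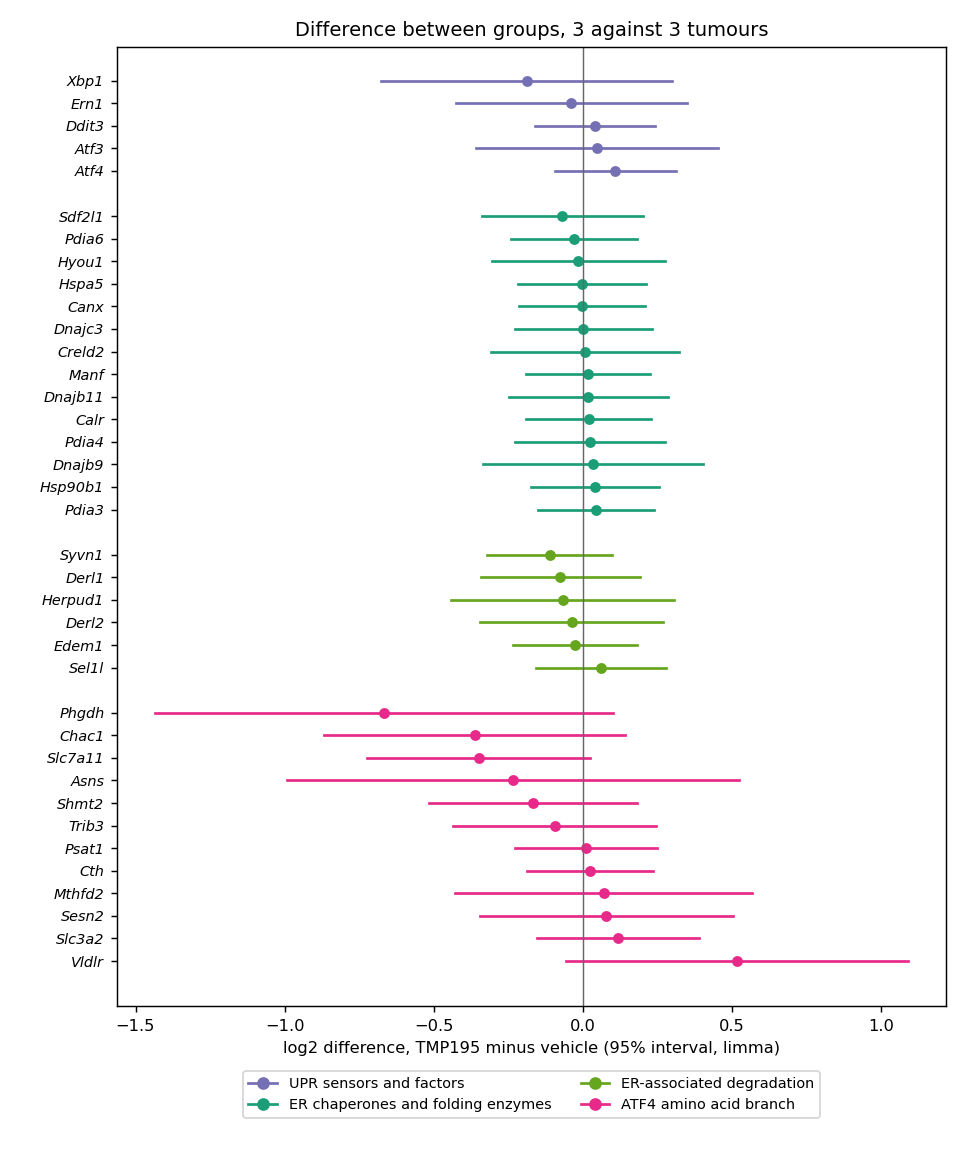
Difference between TMP195 and vehicle tumours for each of the 37 members (log2 TMP195 minus vehicle, 3 tumours a group), with 95% limma intervals as bars and members grouped by role. Every interval crosses 0, and the chaperone branch sits in a narrower band, from -0.11 to 0.06, than the ATF4 amino acid branch, from -0.67 to 0.52.

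Of the 5 sensors and factors, 3 lay higher in the TMP195 tumours and 2 lower, with a median difference of 0.040 and none called. Xbp1, the IRE1 target that encodes a transcription factor of chaperone and degradation genes, read 11.73, 11.95 and 11.78 in the vehicle tumours, given here and later in the order 1, 2, 3, and 11.87, 11.15 and 11.88 in the TMP195 tumours in the same order. TMP195 tumour 2 was the low value, and the other 5 tumours lay together, so the groups overlapped. Its means were 11.82 ± 0.11 (SD, n = 3) with vehicle and 11.63 ± 0.42 (SD, n = 3) with TMP195, a difference of -0.19 ± 0.21 (SE) with a 95% interval from -0.68 to 0.30. Without TMP195 tumour 2 the difference was 0.054. Probe sets of this kind sum spliced and unspliced transcript, so the level of Xbp1 is not a measure of IRE1 activity.

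Atf4, the factor at the head of the amino acid branch, read 7.11, 7.22 and 7.16 with vehicle and 7.27, 7.32 and 7.22 with TMP195. All 3 TMP195 tumours lay above all 3 vehicle tumours, but the closest pair was 0.00038 apart. The difference was 0.11 ± 0.09 (SE), with a 95% interval from -0.09 to 0.31. ATF4 is controlled mainly in translation, which these values do not cover.

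Ddit3, which encodes CHOP, a factor tied to cell death under prolonged ER stress, read 6.93, 6.88 and 6.94 with vehicle and 6.90, 6.94 and 7.03 with TMP195. Its 6 values spanned 0.15 and the groups overlapped, with a difference of 0.040 ± 0.085 (SE). Atf3, a stress-inducible factor that ATF4 can switch on, read 7.30, 7.49 and 7.23 with vehicle and 7.66, 7.03 and 7.48 with TMP195. The highest and the lowest tumour were both TMP195 tumours, and the difference of 0.047 ± 0.17 (SE) was smaller than either group's SD of 0.13 and 0.32. Ern1, the sensor gene itself, lay between 7.65 and 8.27, lowest in vehicle tumour 2 and highest in vehicle tumour 1.

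**Figure D2:**
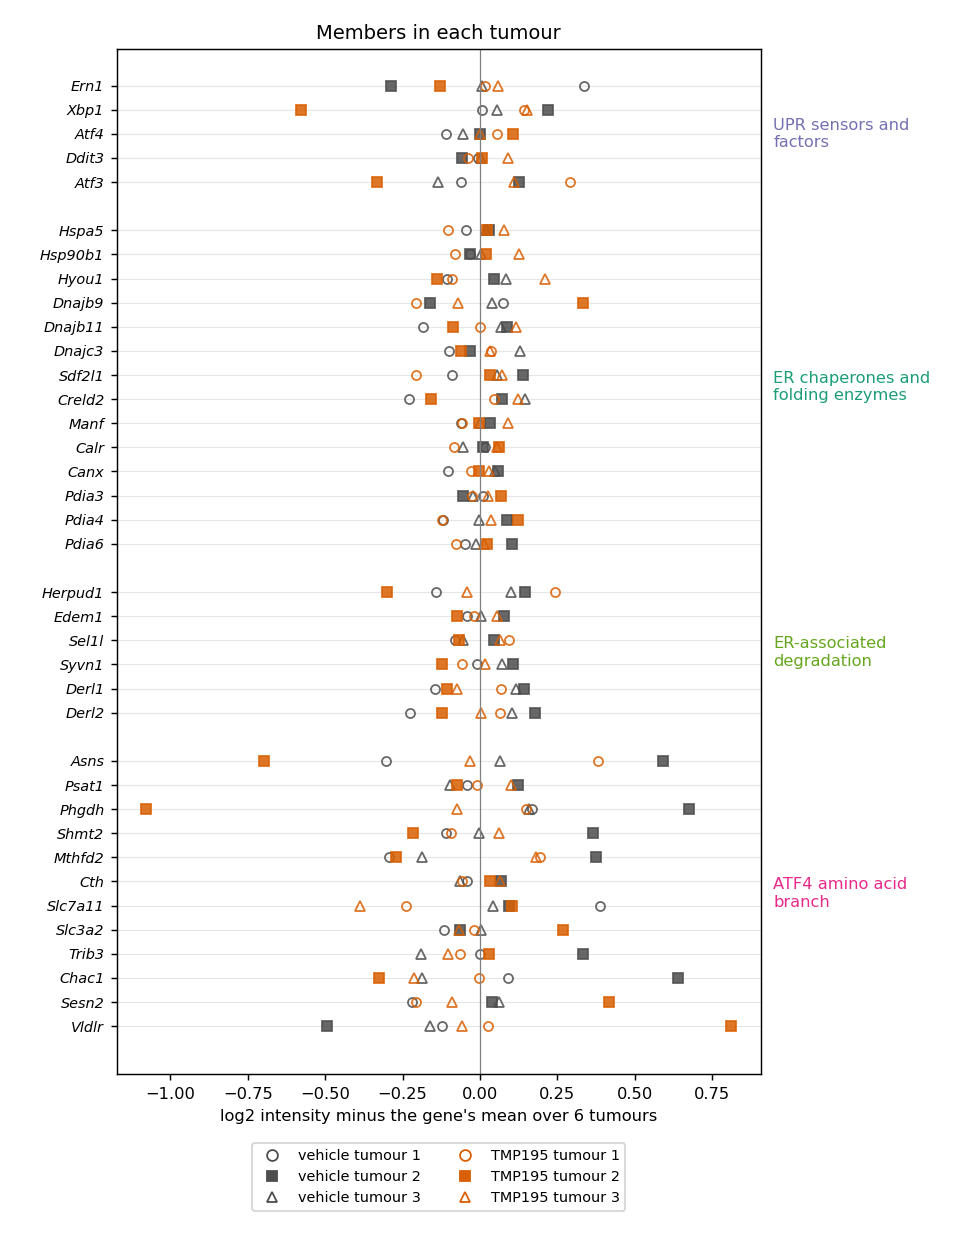
Log2 intensity of each member in each of the 6 tumours, as the difference from the gene's mean over the 6, with vehicle tumours in grey, TMP195 tumours in orange and the tumours numbered 2 as filled squares. The folding genes other than Dnajb9 stay close to their means in all 6 tumours, while Phgdh, Asns, Vldlr and Xbp1 depart from theirs in TMP195 tumour 2.

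The 14 ER chaperones and folding enzymes were level across the tumours. Of them, 9 lay higher and 5 lower with TMP195, their differences ran only from -0.068 to 0.045 with a median of 0.013, and the interval bound farthest from 0 was 0.404, that of Dnajb9. Hspa5, which encodes BiP, the ER Hsp70 that also holds the 3 sensors inactive, read 11.79, 11.87 and 11.86 with vehicle and 11.73, 11.86 and 11.91 with TMP195. The lowest and the highest tumour were both from the TMP195 group. The means were 11.84 ± 0.04 (SD, n = 3) and 11.84 ± 0.09 (SD, n = 3), and the difference was -0.0028 ± 0.090 (SE), with a 95% interval from -0.22 to 0.21. The whole span over 6 tumours was 1.13-fold.

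Hsp90b1, which encodes GRP94, the ER Hsp90, read 11.52, 11.52 and 11.56 with vehicle and 11.48, 11.58 and 11.68 with TMP195. The TMP195 tumours lay on both sides of the vehicle tumours, with a difference of 0.042 ± 0.091 (SE). Sdf2l1, which encodes a partner of BiP and its J proteins, read 8.16, 8.39 and 8.30 with vehicle and 8.04, 8.28 and 8.32 with TMP195. Tumour 1 was the lowest of each group, and the groups overlapped, with a difference of -0.068 ± 0.11 (SE).

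The disulfide isomerases also stayed level. Pdia3, the isomerase that works with calnexin and calreticulin on glycoproteins, read 11.11, 11.05 and 11.08 with vehicle and 11.08, 11.17 and 11.13 with TMP195. It had the smallest span of the chaperone branch, 0.12, and a difference of 0.045 ± 0.082 (SE). Pdia6, which also acts on the sensor IRE1, read 11.06, 11.21 and 11.09 with vehicle and 11.03, 11.13 and 11.12 with TMP195, a difference of -0.028 ± 0.089 (SE). The lectin chaperones Calr and Canx differed by 0.020 and -0.0021, the isomerase Pdia4 by 0.024, and Hyou1, the exchange factor of BiP, by -0.014. The J proteins Dnajb11 and Dnajc3 differed by 0.020 and 0.0023, and Creld2 and Manf, secreted products of ER stress, by 0.0076 and 0.019. Dnajb9, a J protein that returns IRE1 to its resting state, was the most variable of the 14, from 8.27 in TMP195 tumour 1 to 8.81 in TMP195 tumour 2.

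Some of the chaperone promoters share a sequence element. The ER stress response element (ERSE) is the letters CCAAT, then 9 bases of any kind, then CCACG, the element through which ATF6 and XBP1 act together with NF-Y. Windows from 250 bases before to 50 after each annotated start were searched on both strands, in RefSeq promoters of GRCm38.p6. The table held 33 of the 37 members, all but Hyou1, Manf, Derl1 and Cth. An ERSE stood in 7 of 12 folding genes, in 1 of 5 degradation genes and in 0 of 11 genes of the amino acid branch, against 0.119% of all 32851 promoters. Shown are both copies of Hsp90b1 and the copies of 4 other members, oriented so that CCAAT reads forwards, with the letters of the element in capitals.
Hspa5, chr2:34772005-34772063, plus strand: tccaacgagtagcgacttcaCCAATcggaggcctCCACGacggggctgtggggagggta
Hsp90b1, chr10:86705618-86705676, minus strand: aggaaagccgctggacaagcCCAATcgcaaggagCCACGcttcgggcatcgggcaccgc
Hsp90b1, chr10:86705513-86705571, plus strand: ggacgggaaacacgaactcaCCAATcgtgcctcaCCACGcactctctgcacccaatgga
Calr, chr8:84847055-84847113, plus strand: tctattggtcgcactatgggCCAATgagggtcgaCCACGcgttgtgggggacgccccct
Pdia6, chr12:17266471-17266529, plus strand: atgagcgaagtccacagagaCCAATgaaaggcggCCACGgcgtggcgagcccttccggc
Syvn1, chr19:6046512-6046570, plus strand: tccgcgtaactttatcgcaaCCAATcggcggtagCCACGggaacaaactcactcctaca

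The element of Hspa5 lay 65 to 47 bases before the start and that of Syvn1 44 to 26 bases before it. Those of Hsp90b1 lay 212 to 194 and 107 to 89 bases before its start. Dnajc3, Creld2 and Canx held the element as well. Of the 8 chaperone branch genes with the element, 4 lay higher and 4 lower with TMP195, and their median span over the 6 tumours was 0.194. The other 9 chaperone branch genes with a promoter in the table had a median span of 0.30. Brightness, which bears on span on arrays, was not matched between these sets. Most genes with the element were very bright, such as Hspa5 at percentile 99.8 of intensity, though Syvn1 was at 81.5. Those without it ran from 81.3 for Sdf2l1 to 99.3 for Pdia3. The further element TGACGTGG, which XBP1 and ATF6 can also bind, was in no member window, against 0.676% of all promoters. A match in letters is not a measured site.

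**Figure D3:**
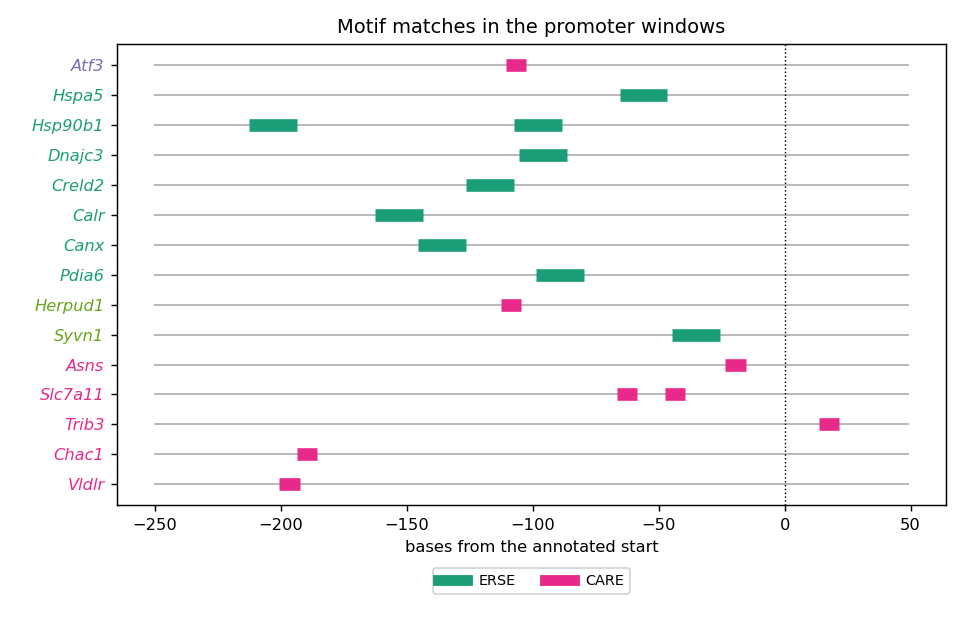
Position of the ERSE (green) and of the amino acid response element (pink, CARE) in the promoter windows of the 15 members that hold either, in bases from the annotated start. The ERSE marks lie in chaperone branch genes, and the CARE marks in ATF4 branch genes, in Herpud1 and in Atf3.

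The 6 genes of ER-associated degradation, the route that returns misfolded proteins to the cytosol for the proteasome, lay lower with TMP195 in 5 cases and higher in 1. The median difference was -0.052 and none was called. Syvn1, which encodes HRD1, the ubiquitin ligase of the route, read 8.25, 8.37 and 8.33 with vehicle and 8.20, 8.14 and 8.27 with TMP195. TMP195 tumours 1 and 2 lay below all vehicle tumours and TMP195 tumour 3 did not, with a difference of -0.11 ± 0.09 (SE) and a 95% interval from -0.32 to 0.10. Sel1l, the partner of HRD1, read 10.01, 10.14 and 10.03 with vehicle and 10.19, 10.02 and 10.16 with TMP195. It was the 1 gene of the 6 that lay higher, by 0.061 ± 0.092 (SE), and the groups overlapped.

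Herpud1, a scaffold of the HRD1 complex, read 9.87, 10.15 and 10.11 with vehicle and 10.25, 9.71 and 9.97 with TMP195. It was the widest of the chaperone branch together with Dnajb9, with a span of 0.54 in each, and its highest and lowest tumours were both TMP195 tumours. The difference was -0.067 ± 0.16 (SE), and it was 0.067 without TMP195 tumour 2. Derl1, a channel protein of the ER membrane, read 7.97, 8.26 and 8.23 with vehicle and 8.18, 8.01 and 8.04 with TMP195, a difference of -0.076 ± 0.11 (SE). Derl2 and Edem1, which recognise and pass on misfolded glycoproteins, differed by -0.036 and -0.025.

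The degradation genes were highest in vehicle tumour 2 in 4 of 6 cases and in TMP195 tumour 1 for Herpud1 and Sel1l. They were lowest in vehicle tumour 1 in 3 cases and in TMP195 tumour 2 in the other 3. All 15 of their 15 gene pairs had a positive correlation over the 6 tumours, with r from 0.17 to 0.94 and a median of 0.63, against 50.5% of all gene pairs on the array with a positive r. Among the folding genes 73 of 91 pairs were positive, with a median r of 0.52. In the amino acid branch 39 of 66 were positive, with a median r of 0.16, and among the sensors and factors 3 of 10. These are descriptions over 6 points that share arrays and normalization. The mean deviation of the 6 degradation genes was lowest in TMP195 tumour 2, at -0.13, and vehicle tumour 1, at -0.11, and highest in vehicle tumour 2, at 0.12.

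The 12 genes of the ATF4 amino acid branch divided evenly, 6 higher and 6 lower with TMP195, with a median difference of -0.042 and none called. They differed from each other far more than the chaperone branch did, with differences from -0.67 to 0.52. The 3 widest single differences of all members, those of Phgdh, Vldlr and Chac1, belong to this branch. Those of Phgdh and Vldlr rest largely on both tumours numbered 2, and that of Chac1 mainly on vehicle tumour 2.

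Phgdh, the enzyme of the first step from glucose to serine, read 7.09, 7.59 and 7.08 with vehicle and 7.07, 5.84 and 6.84 with TMP195. The groups did not overlap, but the gap between them was 0.0099, and TMP195 tumour 2 lay 1.00 below the next lowest tumour. Under median centring or cyclic loess the groups overlapped. Phgdh was the 1 member in which a single tumour lay 2-fold or more from all others, as 1.63% of all genes did. The means were 7.25 ± 0.29 (SD, n = 3) and 6.58 ± 0.65 (SD, n = 3), a difference of -0.67 ± 0.32 (SE), 1.59-fold lower with TMP195, with a 95% interval from -1.44 to 0.10. Without TMP195 tumour 2 the difference was -0.30, and without both tumours numbered 2 it was -0.13.

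Vldlr, a lipoprotein receptor that ATF4 can switch on and whose role is in lipid uptake rather than in amino acids, read 7.91, 7.54 and 7.88 with vehicle and 8.06, 8.85 and 7.98 with TMP195. TMP195 tumour 2 was the highest and vehicle tumour 2 the lowest, and the groups were 0.065 apart. The difference was 0.52 ± 0.24 (SE), 1.43-fold higher with TMP195, with a 95% interval from -0.05 to 1.09. Without TMP195 tumour 2 it was 0.24, and without both tumours numbered 2 it was 0.13.

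Chac1, which breaks down glutathione, read 5.68, 6.23 and 5.40 with vehicle and 5.58, 5.26 and 5.37 with TMP195. Vehicle tumour 2 stood above the rest and the groups overlapped, with a difference of -0.36 ± 0.21 (SE) and a 95% interval from -0.87 to 0.14. Without vehicle tumour 2 it was -0.13, without TMP195 tumour 2 it was -0.29, and without both it was -0.061. Slc7a11, the cystine importer, read 4.09, 3.80 and 3.74 with vehicle and 3.46, 3.80 and 3.31 with TMP195. It was the dimmest member, at percentile 25.7 of intensity over all genes, and TMP195 tumour 2 lay among the vehicle tumours. Its difference was -0.35 ± 0.16 (SE), with a 95% interval from -0.72 to 0.03. Without TMP195 tumour 2 the difference was -0.49, and without both tumours numbered 2 it was -0.53.

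Asns, asparagine synthetase, read 9.06, 9.95 and 9.43 with vehicle and 9.74, 8.66 and 9.33 with TMP195. Its 6 tumours spanned 2.44-fold, from TMP195 tumour 2 to vehicle tumour 2, and the groups overlapped. The difference was -0.23 ± 0.32 (SE), with a 95% interval from -0.99 to 0.52, and without TMP195 tumour 2 it was 0.058. Trib3, a pseudokinase that restrains ATF4, read 6.63, 6.96 and 6.44 with vehicle and 6.57, 6.66 and 6.53 with TMP195. The vehicle tumours lay on both sides of the TMP195 tumours, with a difference of -0.093 ± 0.14 (SE).

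The remaining members of the branch lay closer to 0 than Asns did. Psat1, the second enzyme of serine synthesis, differed by 0.0099, and Cth, which makes cysteine, by 0.025. Shmt2 and Mthfd2, mitochondrial enzymes of folate-bound one-carbon units, differed by -0.17 and 0.070, and both were highest in vehicle tumour 2, at 9.13 and 6.37. Without both tumours numbered 2, Shmt2 differed by 0.040 and Mthfd2 by 0.43. Slc3a2, the heavy chain shared by amino acid exchangers, differed by 0.12, and Sesn2, which senses leucine for the kinase mTORC1, by 0.080. Both of these were highest in TMP195 tumour 2, at 11.50 and 7.77.

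The sequence that ATF4 dimers recognise, the amino acid response element (CARE), was searched as TGATGNAA on both strands. It was found in 5 of 11 amino acid branch genes with a promoter in the table, in Herpud1 and in Atf3, against 3.97% of all promoters. No member window held both this element and the ERSE. The stretches below are those of 4 genes with values given above, among them the 3 with a difference beyond 0.3 that hold the element, and each is oriented so that TGATG reads forwards, with the element's fixed letters in capitals.
Asns, chr6:7693205-7693252, minus strand: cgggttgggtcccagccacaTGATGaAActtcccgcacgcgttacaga
Chac1, chr2:119351029-119351076, minus strand: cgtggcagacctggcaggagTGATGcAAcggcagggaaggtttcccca
Slc7a11, chr3:50443652-50443699, minus strand: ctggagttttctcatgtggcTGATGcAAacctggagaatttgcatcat
Slc7a11, chr3:50443633-50443680, plus strand: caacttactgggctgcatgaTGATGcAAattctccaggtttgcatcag
Vldlr, chr19:27216800-27216847, minus strand: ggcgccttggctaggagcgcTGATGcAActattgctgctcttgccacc

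The element of Asns lay 23 to 16 bases before the start, and that of Chac1 193 to 186 bases before it. Slc7a11 held a pair of them on opposite strands, 66 to 59 and 47 to 40 bases before the start. In Vldlr the element was in 1 of 2 annotated windows, and Trib3 held it 14 to 21 bases after the start. The 5 genes with the element did not lie on one side, since Vldlr lay higher with TMP195 and the other 4 lay lower, with a median difference of -0.23. Of the 6 without it, 4 lay higher and 2 lower.

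**Figure D4:**
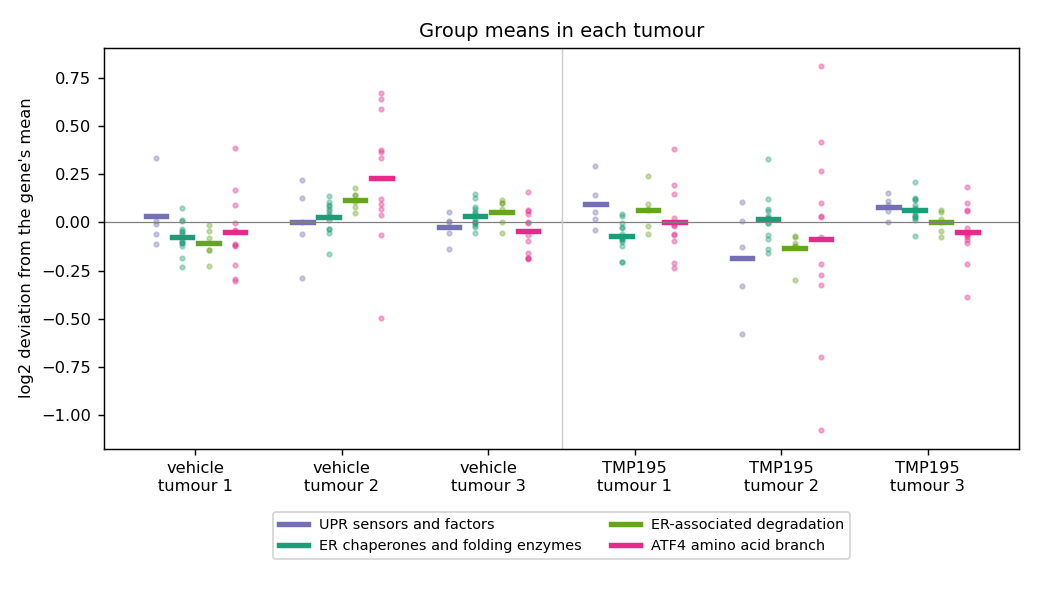
Deviation of each member from its own 6-tumour mean (log2, small points) in each tumour, with a bar at the mean of each group of members, coloured by role. The bar of the ATF4 amino acid branch stands at 0.23 in vehicle tumour 2 and from -0.08 to 0.0041 in the other tumours, while the bars of the folding genes stay between -0.07 and 0.07.

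Set against each other, the branches did not separate the groups. The mean deviation of the chaperone branch was -0.08, 0.05 and 0.04 with vehicle and -0.03, -0.03 and 0.05 with TMP195. That of the amino acid branch was -0.05, 0.23 and -0.05 with vehicle and 0.0041, -0.08 and -0.05 with TMP195. Chaperone minus amino acid branch came to -0.03, -0.17 and 0.09 with vehicle and -0.04, 0.06 and 0.10 with TMP195. The group means of this balance were -0.04 ± 0.13 (SD, n = 3) and 0.04 ± 0.07 (SD, n = 3), so the 0.080 between them was less than the SD of the vehicle tumours, and the groups overlapped. Leaving out each tumour in turn gave values from 0.012 to 0.14.

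The branches differed in spread between tumours, a measure that takes in any difference between the groups as well. The median span over 6 tumours was 0.22 for the folding genes and 0.26 for the degradation genes, against 0.62 for the sensors and factors and 0.65 for the amino acid branch, with 0.42 over all genes. A span of 2-fold or more was reached by Asns, Phgdh and Vldlr, all of the amino acid branch, and by 7.64% of all genes. Bright probe sets vary less on arrays. Among the brightest 4985 genes, a comparison chosen after seeing the data, the median span was 0.317. The 20 chaperone branch genes, all among them, had 0.230, and the 5 amino acid branch genes among them had 0.580. Brightness was not matched within this cut, which ran from Vldlr at percentile 78.2 to Hspa5 at 99.8 among the members. The comparison therefore cannot separate brightness from branch.

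**Figure D5:**
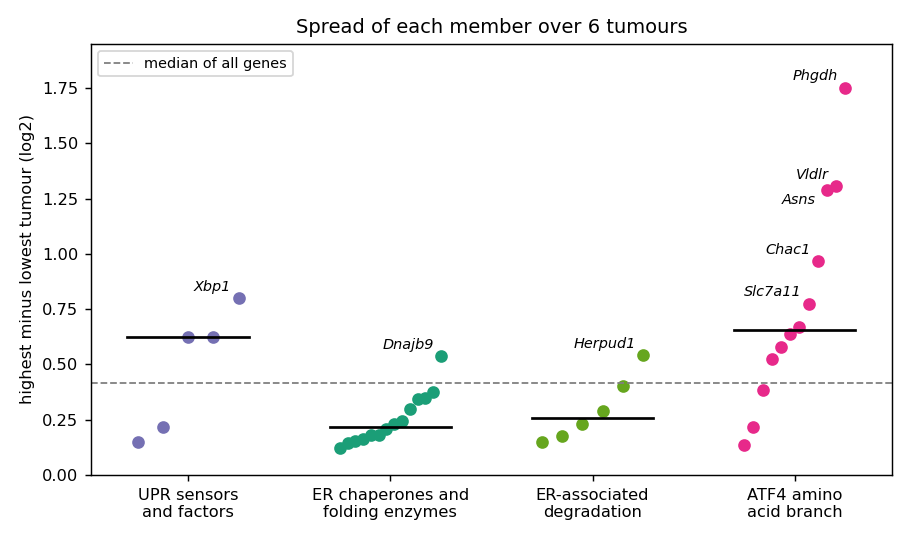
Span of each member over the 6 tumours (log2, highest minus lowest tumour) by role, with a line at the median of each role and a dashed line at the median of all genes, 0.42. Phgdh, Vldlr and Asns lie highest, at 1.75, 1.31 and 1.29, and most folding and degradation genes lie under the dashed line.

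The tumours at the ends of these spans differed by branch. Of the 12 amino acid branch genes, 8 were highest in vehicle tumour 2, as 24.2% of all genes were, and 4 were lowest in TMP195 tumour 2, as 22.4% of all genes were. Of the 20 chaperone branch genes, 8 were lowest in vehicle tumour 1 and 7 in TMP195 tumour 1, as 3189 and 3368 of all 19937 genes were, and 7 were highest in vehicle tumour 2. At a gap of 0.32 or more (log2) from all 5 other tumours, a threshold chosen after seeing the data, vehicle tumour 2 lay above for Phgdh and Chac1 and below for Vldlr. At the same threshold TMP195 tumour 2 lay above for Sesn2 and Vldlr and below for Xbp1, Asns and Phgdh. Over all genes the shares were 2.29% above and 1.91% below in vehicle tumour 2, and 5.26% above and 3.66% below in TMP195 tumour 2. No chaperone branch gene was set apart in this way in any tumour, and no member was in the other 4 tumours.

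Markers of other cells and states varied alongside these values. Vehicle tumour 2, with the highest amino acid branch, was also the tumour with the high skeletal muscle mean: the summed intensity of the 10 muscle genes ran from 299 to 3593 with vehicle and from 310 to 408 with TMP195. All 10 were highest in vehicle tumour 2, and 4 of the 10 were brighter than the median gene on average over the tumours. The same tumour was the lowest in 6 of 7 endothelial genes, 5 of them brighter than the median gene, whose sum ran from 701 to 900 with vehicle and from 835 to 927 with TMP195. TMP195 tumour 2, low in Xbp1, Asns and Phgdh, was the lowest in 6 of 7 milk genes, all 7 brighter than the median gene. The casein Csn2 stood at 6.03 there, against 9.86 to 11.82 elsewhere. Csn3 went the other way and was highest there, at 11.98, and it dominates the sum of the list, which ran from 7293 to 15572 with vehicle and from 4581 to 11193 with TMP195.

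In adipocyte markers that tumour was the lowest for 9 of 10 genes, with a mean of 4.73 against 5.81 to 8.33. Their sum ran from 1385 to 6808 with vehicle and from 299 to 4476 with TMP195, and 8 of 10 were brighter than the median gene. In salivary or serous secretory markers it was the lowest for 8 of 11 genes, with a mean of 3.99 against 5.02 to 6.19. Their sum ran from 791 to 2054 with vehicle and from 297 to 2969 with TMP195, and 4 of 11 were brighter than the median gene. Among them Bhlha15, which encodes a transcription factor of secretory cells, stood at 6.63 in that tumour and at 8.02 to 8.78 in the others. In fibroblast markers it was the lowest for 5 of 8 genes, 7 of them brighter than the median gene, with sums from 7308 to 11244 with vehicle and from 6626 to 10551 with TMP195. T cell markers went the other way, highest there for 5 of 7 genes, with sums from 144 to 178 with vehicle and from 149 to 223 with TMP195, and none was brighter than the median gene.

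Of the 9 proliferation genes, 8 were lowest in TMP195 tumour 2, and Birc5 was highest there, at 8.36 against at most 7.69. Their sum ran from 3617 to 4748 with vehicle and from 2751 to 4236 with TMP195, all 9 brighter than the median gene. The same tumour was the highest in 7 of 10 hypoxia genes, of which 9 were brighter than the median gene, with sums from 6863 to 8263 with vehicle and from 7473 to 9654 with TMP195. Plasma cells, which are rich in Xbp1 and ER chaperones and are given for that reason, had 9 listed genes of which 4 were brighter than the median gene, and their sum ran from 603 to 779 with vehicle and from 700 to 755 with TMP195. Among these the defining genes Jchain, Mzb1 and Tnfrsf17 were dim, at percentiles 20.4, 25.6 and 18.6 of intensity. Derl3 and Sdc1 were the brightest, at percentiles 77.3 and 73.3, and weigh most in the sum. Derl3 is also listed with the other folding and degradation genes. The 10 macrophage markers were all brighter than the median gene. Their sums ran from 3448 to 3974 with vehicle and from 3202 to 3444 with TMP195. These sums did not overlap, but the closest pair was 3448 and 3444. Of the 10 genes only 1, Trem2, had groups that did not overlap, against 6.68% of all genes, and none was called. The part of these markers in the members' values was not tested.

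Further genes of the same pathways, listed separately, showed no call either. Of 13 measured genes of unfolded protein signalling 9 lay higher with TMP195 and 4 lower, with a median of 0.042. Among them Eif2ak3, which encodes PERK, differed by -0.17 ± 0.12 (SE), Ppp1r15b, a subunit of the eIF2α phosphatase, by 0.18 ± 0.18 (SE), Eif2ak2, the eIF2α kinase that senses double-stranded RNA, by 0.15 ± 0.19 (SE), and Creb3l2, an ER-bound factor, by 0.070 ± 0.11 (SE). PERK senses the ER lumen as IRE1 does. Of 25 other folding and degradation genes 12 lay higher and 13 lower, with a median of -0.0047. The collagen isomerase Fkbp14 differed by 0.28 ± 0.25 (SE), with TMP195 tumour 2 at 7.70 and the others from 6.73 to 6.98. Edem2, of glycoprotein degradation, differed by -0.11 ± 0.11 (SE), the isomerase P4hb by -0.095 ± 0.090 (SE), and Ero1b, which oxidises isomerases, by -0.14 ± 0.14 (SE).

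Of 30 other ATF4 target genes, 10 lay higher with TMP195 and 20 lower, with a median of -0.038 and none called. Fgf21, a stress hormone, read 3.90, 3.86 and 3.82 with vehicle and 3.96, 4.05 and 4.14 with TMP195. It was dim, at percentile 29.1 of intensity, and its groups did not overlap, with a difference of 0.19 ± 0.09 (SE). The glycine transporter Slc6a9 differed by 0.23 ± 0.12 (SE), the glycyl-tRNA synthetase Gars by -0.21 ± 0.14 (SE), and Eif4ebp1, which restrains cap-dependent translation, by -0.13 ± 0.09 (SE). The mean deviation of these 30 genes was highest in vehicle tumour 2, at 0.15, as in the amino acid branch, and lowest in vehicle tumour 1, at -0.10, and TMP195 tumour 2, at -0.10.

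The genes whose levels over the 6 tumours were most like the mean of the chaperone branch were Pomgnt2, Arrb2, Hnrnpll, Olfr50 and Wdr17, with Pearson r from 0.988 to 0.996. Olfr50 and Wdr17 were very dim, at percentiles 5.87 and 5.55 of intensity. Those most like the mean of the amino acid branch were Hps6, Plin3, Pgam2, Rex1bd and Eno3, with r from 0.985 to 0.990. Pgam2 and Eno3 encode muscle forms of glycolytic enzymes. With 6 points and 19937 genes, values of this size are a description only.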

How the data were processed

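Total RNA of 6 tumours was measured on Affymetrix arrays. Per the submitters' processing notes, the deposited intensity values come from RMA run in Affymetrix Power Tools, with versions not given in the sources used here. Their scale is not stated, and the authors' values were taken as linear because the highest were 8137 to 8873 per array. RMA usually includes quantile normalization, so a shift of most genes together would not be seen. Log2 of the deposited intensity was used throughout.

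The arrays gave 27359 probe sets, and only the 21784 whose annotation listed a single gene symbol were named, leaving 1620 with several and 3955 without any. The brightest probe set stood for each of the 995 genes with more than 1. Group differences come from lmFit and eBayes of limma 3.58.1 under R 4.3.3, two-sided, without covariates, with Benjamini-Hochberg adjustment over 19937 genes. No filter on intensity was used.

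The members and lists were chosen with earlier results of these data known. Values in every tumour are given for Hspa5, Xbp1, Atf4, Ddit3, Asns and Trib3, for the 4 members per role with the smallest unadjusted p and for any member with 1 tumour 2-fold or more from all others. Up to 4 genes of each further pathway list are named by unadjusted p, and the 5 genes most like each branch by Pearson r. Other members named with single values were named after their values were seen. Marker lists describe transcripts, not numbers of cells, and those in which a tumour numbered 2 stood at one end are described, with plasma cells, which are rich in the members' products, and macrophages.

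Tumours of the same replicate number were not treated as pairs. Their deviations from group means correlated at -0.21, -0.06 and -0.10. With 3 tumours a group, these values cannot settle whether the numbers mark something shared. Promoters came from RefSeq (GRCm38.p6). The fit was run on simulated data with known differences as a check of the code. Simulated errors were independent between genes and tumours, so tumours that depart in many genes together were not covered. Python 3.11.15, pandas 2.3.3, numpy 2.4.6 and matplotlib 3.10.9 were used for tables and plots.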

Additional observations from a re-analysis of the deposited data

How the results depend on the processing

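Under every alternative tried, limma called 0 of all genes and 0 of 37 members: the replicate number as a block, median centring, cyclic loess, a trended robust prior, no genes below the 30th percentile of intensity, 16 added before log2, the mean of a gene's probe sets, array weights, an adjusted p of 0.10, each tumour left out in turn, and both tumours numbered 2 left out. With the replicate block 397 genes had an unadjusted p under 0.05 against 502 without it. In this balanced design the block leaves each difference as it is. Members with an unadjusted limma p under 0.05 numbered 1 under array weights, against 938 of all genes. They numbered 0 or 1 when 1 tumour was left out, against 503 to 669 of all genes. Without both tumours numbered 2 there were 3 of 37, against 742 of all 19937 genes. The share was thus higher among the members in this setting, but it rests on 3 genes and none was called. The 1 member beyond 1.5-fold without overlap of groups became 0 under median centring, cyclic loess, 16 added, array weights and without both tumours numbered 2, and 0 to 2 when 1 tumour was left out. Leaving out 1 tumour gave median differences from -0.055 to 0.054 for the sensors and factors, -0.039 to 0.038 for the folding genes, -0.15 to 0.011 for the degradation genes and -0.12 to 0.058 for the amino acid branch. The amino acid branch median was 0.0099 without dim genes. Without both tumours numbered 2, the degradation median was 0.067 and the amino acid branch median 0.027, and the differences were 0.12 for Xbp1, 0.12 for Herpud1, 0.011 for Derl1, 0.29 for Asns, 0.012 for Trib3, 0.00026 for Gars, -0.047 for Fkbp14, -0.14 for Eif2ak2 and -0.039 for Creb3l2. Median centring gave 0.012 for Hspa5. Leaving out 1 tumour gave ranges that held both signs for Xbp1 (-0.31 to 0.054), Atf3 (-0.086 to 0.23), Hspa5 (-0.041 to 0.048), Hsp90b1 (-0.010 to 0.093), Sdf2l1 (-0.13 to 0.017), Pdia6 (-0.059 to 0.017), Herpud1 (-0.20 to 0.067), Asns (-0.48 to 0.058), Trib3 (-0.21 to 0.050), Fkbp14 (-0.023 to 0.46), Ppp1r15b (-0.0058 to 0.28), Eif2ak2 (-0.022 to 0.29) and Creb3l2 (-0.0052 to 0.14). These lists cover only the members with values given in every tumour and the pathway genes named by unadjusted p. Over all 37 members, leaving out 1 tumour turned the sign of 9 to 11 differences. Leaving out both tumours numbered 2 turned 12. The causes were not tested. With 3 tumours a group, the median 95% interval of a member reached 0.27 to either side of its difference. Raw scanner signal was not used here, so signal over background was not assessed.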

Other observations

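Slc1a5, an importer of neutral amino acids listed among the other ATF4 target genes, read 7.40, 7.96 and 8.53 with vehicle and 8.18, 6.83 and 7.20 with TMP195 (tumours in the order 1, 2, 3). The groups overlapped, and the difference of -0.56 ± 0.40 (SE) was wider than that of any member but Phgdh. It was named after its values were seen. A second probe set of Pdia4 was dim, with a mean log2 intensity of 4.40, and differed by 0.088, where the bright one differed by 0.024. Dnajc3 had 2 probe sets with the same value in every tumour.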
